A study of Homo sapiens with 3 samples.

Results

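The genes described here carry NODAL and activin signalling, the TGF-beta branch that helps to hold human embryonic stem cells undifferentiated. The list held 10 genes, given here by role: the ligands NODAL and GDF3, the receptor ACVR2B with the co-receptor TDGF1, the nuclear partner FOXH1, and the inhibitors LEFTY1, LEFTY2, CER1, FST and SMAD7. Members were the probe sets whose platform symbol is exactly one of these names, which gave 15 probe sets for 8 of the 10 genes, against 19775 genes named singly on the array. LEFTY2 and TDGF1 had no probe set of their own and were read only together with another gene.

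The cells were undifferentiated khES3, a human embryonic stem cell line, and the 3 groups were cells kept for 5 hours in leucine-deprived medium, in lysine-deprived medium, or in complete medium. Human cells cannot make either amino acid and depend on the medium for them. All groups are the same line in the same state, with no added ligand or inhibitor named in the labels. Each group had 1 Affymetrix array, so no difference below has a replicate check and none has a p-value.

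NODAL and activins are secreted dimers that bring type I and type II receptor kinases together, and the receptors phosphorylate SMAD2 and SMAD3. These enter the nucleus with SMAD4 and, at many genes, with FOXH1. Among the genes they switch on are NODAL itself and its own inhibitors, the LEFTY proteins, CER1 and SMAD7, so these members also serve as readouts of the pathway. NODAL and GDF3 need an EGF-CFC co-receptor such as TDGF1 (now named CRIPTO), whereas activins do not.

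Values are MAS5 signal in arbitrary units. Each difference is a log2 ratio of signals, so that 1 stands for 2-fold, after values under the 40th percentile of an array were raised to it. This floor lay at a signal of 56.7 on the leucine-deprived, 62.4 on the lysine-deprived and 54.6 on the complete-medium array. A difference against an array at the floor is a bound. Where several probe sets read 1 gene (5981 genes), their differences scattered with an SD of 0.49 after leucine removal, 0.57 after lysine removal and 0.58 between the deprivations. For bright probe sets, those with a mean signal of 1000 or more, the SD was 0.18, 0.28 and 0.27 in that order (1412 genes). The spread between cultures is not part of this SD. Median centring, an alternative scaling, sets the median signal of every array equal.

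The stretches of 250 bases before the starts of GDF3, CER1 and NODAL are shown because GDF3 and CER1 held the largest differences among the members and NODAL is the central ligand. They are from RefSeq on GRCh38.p14, where matches are given for 6 measured members and are not reported here for FOXH1. The 3 stretches shown lie on the minus strand, at chr12:7695776-7696025, chr9:14722734-14722983 and chr10:70441682-70441931. Each is written 5′ to 3′ toward the gene. Capitals mark matches to a FOXH1-type site (TGTNNATT), a SMAD element (CAGAC) or a C/EBP-ATF element (TGATGNAA), searched on both strands.
GDF3: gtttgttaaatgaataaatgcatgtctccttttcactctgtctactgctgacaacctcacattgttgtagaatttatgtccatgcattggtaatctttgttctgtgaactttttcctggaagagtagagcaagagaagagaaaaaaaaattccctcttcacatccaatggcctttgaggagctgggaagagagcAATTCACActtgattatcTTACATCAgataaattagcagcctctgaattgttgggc
CER1: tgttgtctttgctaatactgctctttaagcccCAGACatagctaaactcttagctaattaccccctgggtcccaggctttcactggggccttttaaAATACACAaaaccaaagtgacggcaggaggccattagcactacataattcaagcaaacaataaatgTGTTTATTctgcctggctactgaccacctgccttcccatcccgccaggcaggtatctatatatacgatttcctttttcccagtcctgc
NODAL: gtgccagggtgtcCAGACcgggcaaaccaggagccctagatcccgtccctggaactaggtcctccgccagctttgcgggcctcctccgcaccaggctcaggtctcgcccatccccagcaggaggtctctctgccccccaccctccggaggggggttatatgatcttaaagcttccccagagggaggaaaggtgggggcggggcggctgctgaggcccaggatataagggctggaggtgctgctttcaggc
The GDF3 stretch held the FOXH1-type letters as AATTCACA at bases -56 to -49 from the start and the C/EBP-ATF letters as TTACATCA at bases -38 to -31. In the CER1 stretch the FOXH1-type letters stood as AATACACA at -154 to -147 and as TGTTTATT at -88 to -81, with CAGAC at -218 to -214. NODAL had CAGAC alone, at -237 to -233. The 3 stretches listed for SMAD7 held CAGAC or its complement 3 times in all, and those of FST and ACVR2B held no match. No matches overlapped. Over all 35116 RefSeq stretches of this length, 9.88% held the FOXH1-type letters, 38.0% the SMAD letters and 3.14% the C/EBP-ATF letters. A match is a description of the letters, not a bound site.

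The ligand GDF3 was the member with the largest difference measured on both sides. GDF3 is a TGF-beta family ligand made by undifferentiated cells, which signals through the same receptors as NODAL and can also block BMPs. Its single probe set (220053_at) had a signal of 3949 after leucine removal and 2218 after lysine removal, against 6075 in complete medium. It was lowest after lysine removal, between the others after leucine removal and highest in complete medium. Against complete medium the difference was -1.45 after lysine removal, 2.74-fold lower, and -0.62 after leucine removal, 1.54-fold lower. Of 7025 probe sets that averaged a signal of 1000 or more and named 1 gene, GDF3 was number 3 from the lowest after lysine removal and number 84 from the lowest after leucine removal. In the same set 0.527% were at least 2-fold lower after lysine removal and 0.0569% after leucine removal. Both differences share the 1 complete-medium array and are not independent. The leucine-deprived array was 0.83 above the lysine-deprived one, which only 0.399% of bright probe sets equalled or exceeded.

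NODAL, the ligand that gives the pathway its name, was read by 3 probe sets that differed in direction. The brightest, 230916_at, had 1076 after leucine removal and 625 after lysine removal, against 1008 in complete medium. It was thus lower only on the lysine-deprived array, by a difference of -0.69, and within 0.10 of complete medium on the leucine-deprived array, where the sign turned to -0.04 under median centring. The dimmer 237896_at had 311 after leucine removal and 159 after lysine removal, against 197 in complete medium. These are differences of 0.66 and -0.31, so the lysine-deprived array was again the lowest. The third, 220689_at, was at the floor after leucine removal and in complete medium and reached 75.8 after lysine removal, at least 1.39-fold higher, which is the opposite direction. Between the deprivations the first 2 probe sets stood 0.78 and 0.97 higher in leucine-deprived cells.

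**Figure D1:**
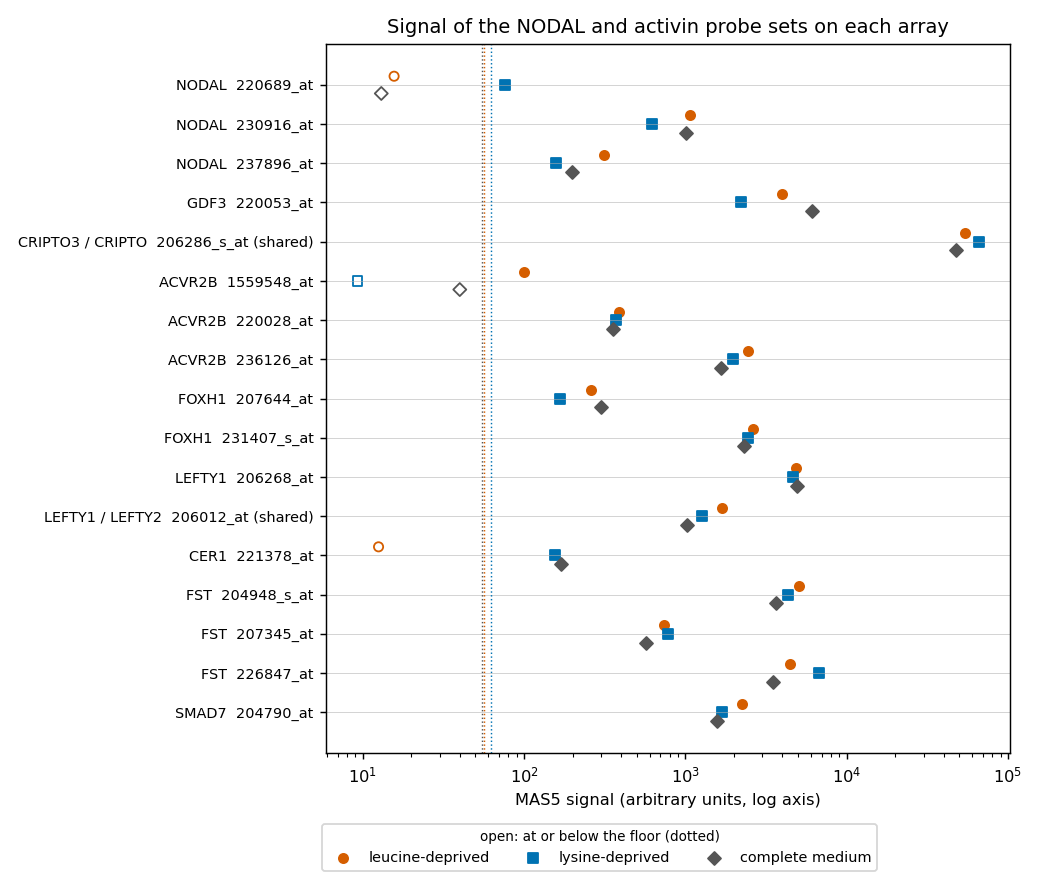
MAS5 signal of each NODAL and activin probe set (log axis) in leucine-deprived, lysine-deprived and complete medium, 1 array each; dotted lines are the floors and open symbols lie at or under them. GDF3 is lowest after lysine removal (2218, against 6075 in complete medium), and CER1 lies at the floor only after leucine removal.

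ACVR2B is a type II receptor that binds NODAL and activins. Its brightest probe set, 236126_at, had 2435 after leucine removal and 1970 after lysine removal, against 1653 in complete medium. Both deprived arrays were above complete medium, by 0.56 after leucine removal and 0.25 after lysine removal. After lysine removal this came down to 0.00 under median centring. The second probe set, 220028_at, had 388 and 370 after leucine and lysine removal, against 358 in complete medium, and its small differences of 0.11 and 0.05 turned to -0.02 and -0.20 under median centring. The remaining one, 1559548_at, was above the floor on the leucine-deprived array alone (99.6), at least 1.82-fold higher than in complete medium. The co-receptor TDGF1 was read only by 206286_s_at, which the annotation gives to CRIPTO and its near copy CRIPTO3 together. That probe set had 53940 after leucine removal and 66210 after lysine removal, against 47640 in complete medium. The differences were 0.18 and 0.47, and they cannot be given to one of the copies.

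FOXH1, the forkhead factor that brings activated SMADs to DNA, had a bright and a dim probe set. The bright one, 231407_s_at, had 2623 after leucine removal and 2440 after lysine removal, against 2316 in complete medium, differences of 0.18 and 0.08. The second of these turned to -0.17 under median centring. The dim one, 207644_at, had 259 after leucine removal and 168 after lysine removal, against 299.7 in complete medium. It was lowest after lysine removal, with a difference of -0.84, and 0.21 lower after leucine removal (-0.21). The probe sets of FOXH1 thus went opposite ways on the deposited scale, and lay further apart after lysine removal than after leucine removal. Beside these values, the ratio of 3′ to 5′ signal of ACTB, a measure of RNA quality, was 7.55 after leucine removal and 11.2 after lysine removal, against 5.44 in complete medium. For GAPDH it was 1.23 and 1.25, against 1.08. In the order of these ACTB ratios, GDF3, FOXH1 207644_at and, by little, LEFTY1 206268_at fell. FST 226847_at, FST 207345_at and the shared 206286_s_at rose in it. CER1, SMAD7, every ACVR2B probe set, NODAL 230916_at and NODAL 237896_at did not follow that order. Neither did FOXH1 231407_s_at, FST 204948_s_at and the shared 206012_at. NODAL 220689_at was above the floor on the lysine-deprived array only. The part of RNA quality in the values of NODAL, FOXH1, GDF3, FST, CER1 and the other genes was not tested.

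The secreted inhibitors did not share a direction. LEFTY1, a NODAL antagonist that is itself switched on by NODAL, had 4863 after leucine removal and 4643 after lysine removal, against 4892 in complete medium (206268_at). All 3 arrays lay close together, with differences of -0.01 and -0.08, the first of them 0.02 after quantile normalization. A second probe set, 206012_at, is shared by LEFTY1 and LEFTY2, which are near-identical genes. It had 1690 after leucine removal and 1266 after lysine removal, against 1027 in complete medium, which is 0.72 and 0.30 higher. Complete medium was lowest here, unlike in the LEFTY1 probe set, and after lysine removal the difference was 0.05 under median centring.

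CER1, a secreted antagonist that binds NODAL and BMPs, was dim, and its only probe set (221378_at) had 12.5 after leucine removal and 155 after lysine removal, against 168 in complete medium. The leucine-deprived array alone was at the floor, which makes CER1 at least 2.97-fold lower than in complete medium and at least 2.74-fold lower than after lysine removal. With the floor at the 60th percentile these bounds shrank to -0.30 and -0.18. In all 3.49% of probe sets above the floor on at least 1 array were 2-fold lower after leucine removal, bounds included. In bulk RNA, fewer cells that make CER1 and less CER1 RNA per cell cannot be told apart.

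FST encodes follistatin, which binds activins and keeps them from their receptors. Its probe set 226847_at had 4458 after leucine removal and 6691 after lysine removal, against 3504 in complete medium, differences of 0.35 and 0.93. It was highest after lysine removal, where 1.57% of bright probe sets were as high over complete medium. The other bright probe set, 204948_s_at, had 5066 and 4313 after leucine and lysine removal, against 3667 in complete medium, so that here leucine removal was highest, with differences of 0.47 and 0.23. After lysine removal it turned to -0.01 under median centring. The dimmer 207345_at had 735 and 785 after leucine and lysine removal, against 569 in complete medium, differences of 0.37 and 0.46. All 3 FST probe sets were thus lowest in complete medium on the deposited scale. They differed in which deprivation was higher, and for 207345_at that difference of -0.09, leucine over lysine, turned to 0.02 under median centring.

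SMAD7, the inhibitory SMAD that blocks the receptors from inside the cell, had 2252 after leucine removal and 1693 after lysine removal, against 1562 in complete medium (204790_at). It was highest on the leucine-deprived array, by 0.53 over complete medium, a size reached by 3.80% of bright probe sets. After lysine removal the difference was 0.12, and -0.13 under median centring.

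**Figure D2:**
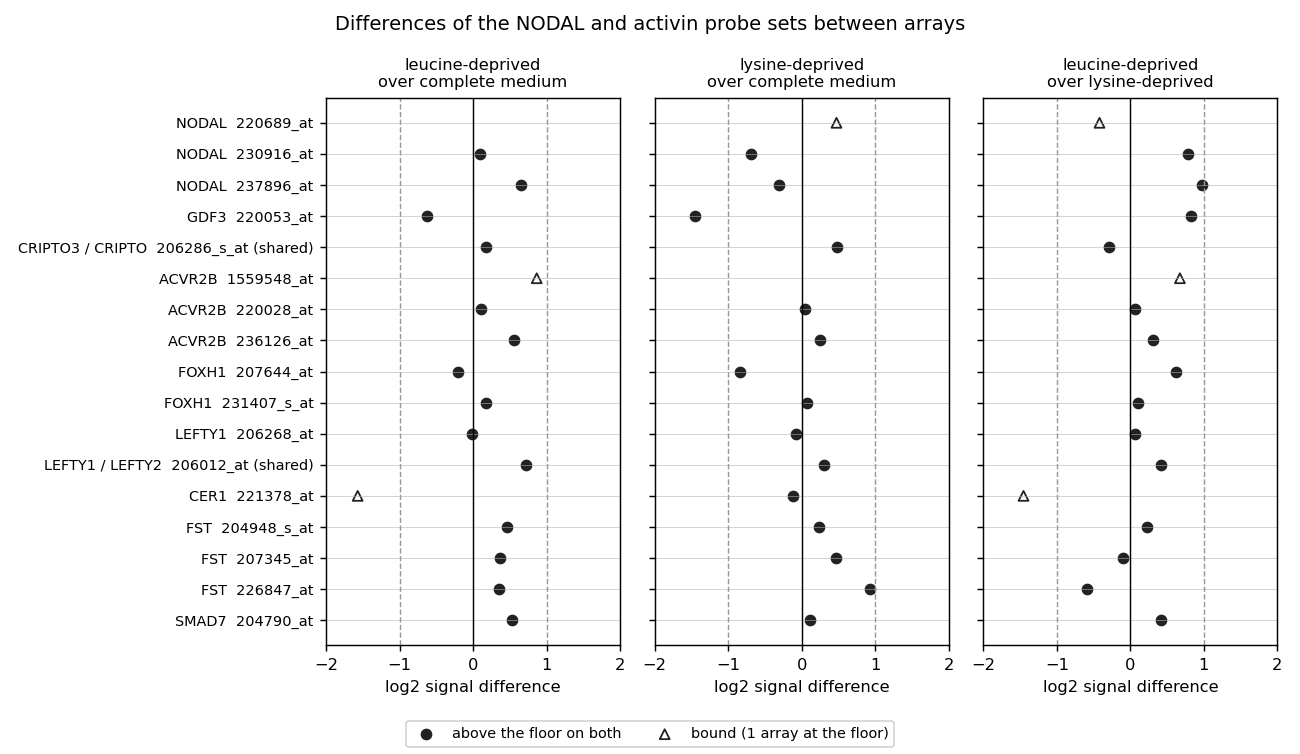
Log2 signal difference of each probe set for leucine-deprived over complete, lysine-deprived over complete and leucine- over lysine-deprived; dashed lines mark 2-fold, triangles are bounds, and a probe set at the floor on both arrays has no symbol. GDF3 (-1.45 after lysine removal) and the CER1 bounds (-1.57 and -1.45) are the values past 2-fold.

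Few member probe sets passed 2-fold, which was also rare over all probe sets. After leucine removal 0 of 12 member probe sets above the floor on both arrays did so, where 2.77% of all such probe sets were at least 2-fold higher and 1.93% lower, and CER1 did as a bound. After lysine removal 1 of 13 was 2-fold lower, GDF3, against a background of 2.63% lower and 4.66% higher. Between leucine and lysine deprivation 0 of 12 passed, with 2.40% higher and 3.63% lower in all, and CER1 did as a bound (7.19% lower in all with bounds). At 1.5-fold the members counted 1 higher and 1 lower after leucine removal (10.6% and 7.97% of all), 1 higher and 3 lower after lysine removal (14.7% and 10.2%), and 4 higher and 1 lower for leucine over lysine deprivation (9.35% and 11.5%). The 4 that were higher after leucine than after lysine removal were both measured NODAL probe sets, GDF3 and the dim FOXH1 probe set, and the 1 that was lower was FST 226847_at.

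Taking each gene by its brightest probe set, the median difference over the 8 member genes was 0.14 after leucine removal, -0.00 after lysine removal and 0.21 for leucine over lysine deprivation. Over all 12961 genes the medians were 0.01, 0.00 and 0.02. Under median centring the member medians were 0.01, -0.25 and 0.32 and the all-gene medians -0.12, -0.24 and 0.13, so a member value counts relative to that shift. Without probe sets marked _s_at or _x_at the member medians were 0.04, -0.10 and 0.36. Counted over all genes and with bounds, 493 were 2-fold higher and 335 lower after leucine removal, which became 341 and 466 under median centring. After lysine removal 783 were higher and 443 lower, which became 481 and 858 under median centring and 669 and 576 after quantile normalization. For leucine over lysine deprivation 465 were higher and 628 lower, against 627 and 511 under median centring and 603 and 544 after quantile normalization.

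Dim probe sets scatter more than bright ones, so members were also placed among probe sets of like level (20 bins of 1126 to 1152 probe sets). After leucine removal GDF3 lay below the middle 95% of its bin (-0.47 to 0.52) and the other 11 measured member probe sets lay inside theirs. After lysine removal GDF3 lay below and FST 226847_at above the middle 95% of the bin they share (-0.67 to 0.75), and 11 lay inside. For leucine over lysine deprivation GDF3 and NODAL 230916_at lay above theirs, FST 226847_at lay below, and 9 lay inside. The NODAL value of 0.78 stood against an upper limit of 0.70. This is a description of these arrays, not a test.

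**Figure D3:**
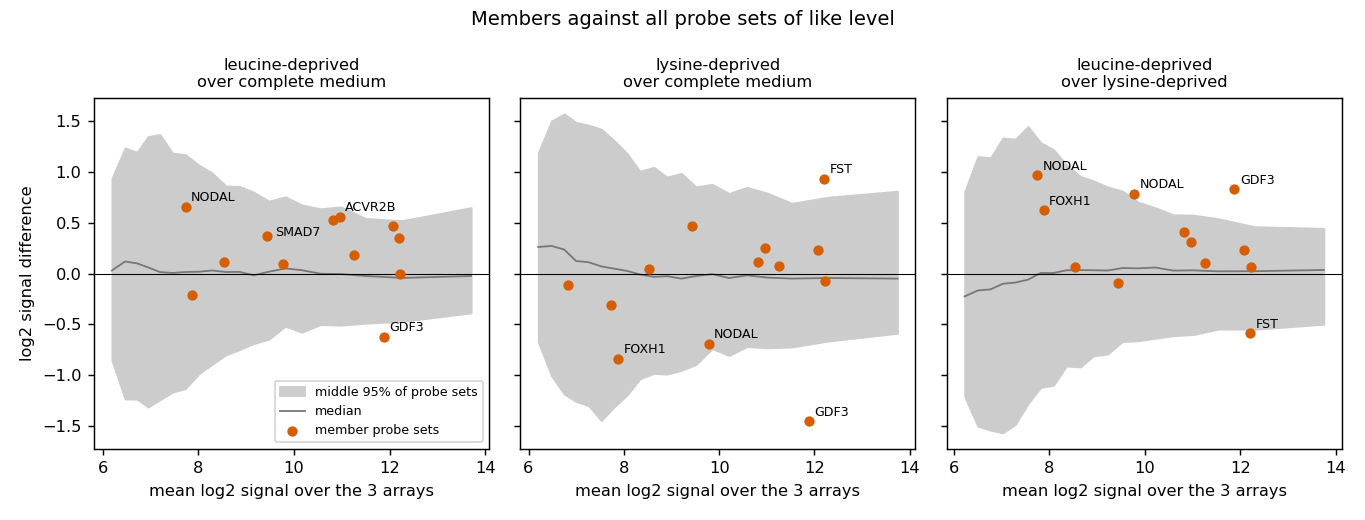
Log2 difference (y axis) against mean log2 signal over the 3 arrays (x axis) for member probe sets above the floor on both arrays, as points, over the middle 95% (grey) and median (line) of all singly named probe sets in 20 bins of level. GDF3 lies outside the grey band in all 3 comparisons, and FST 226847_at does in the 2 that involve lysine deprivation.

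Other genes of the NODAL, activin and TGF-beta pathway were taken from lists by role. Of 70 listed genes, members included, 55 had a probe set at or above the median level. After leucine removal 1 of these was at least 2-fold higher and 4 were lower, 1 of them as a bound, where 3.81% of all genes were higher and 2.59% lower. After lysine removal 4 were higher and 6 lower, 3 of them as bounds, against 6.05% higher and 3.42% lower. For leucine over lysine deprivation 3 were higher, 2 as bounds, and 6 lower, 3 as bounds, against 3.59% and 4.85%. The median over the 55 was 0.12 after leucine removal and 0.05 after lysine removal.

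Of the 10 measured ligand genes 1 was past 2-fold after leucine removal and 6, 1 of them as a bound, after lysine removal. Over all genes 3.81% were higher and 2.59% lower after leucine removal, and 6.05% and 3.42% after lysine removal. Of the 6, INHA, INHBB, TGFB1 and TGFB2 were dim, with a signal at or near the floor on 1 of the 2 arrays compared. INHBE, which encodes the beta E subunit of activins, had 4046 after leucine removal and 5637 after lysine removal, against 188 in complete medium, and was the sole listed gene past 2-fold upward in both. The subunit genes INHA, of inhibins, and INHBB, of activin B, were dim and higher after lysine removal. INHA had 108 and 219 after leucine and lysine removal, against 67.7 in complete medium. INHBB was at the floor after leucine removal and had 185 after lysine removal, against 55.9 in complete medium. TGFB1 had 168 after leucine removal and was at the floor after lysine removal, against 172 in complete medium, at least 1.46 lower on the log2 scale (-1.46). TGFB2 had 96.6 and 69.3 after leucine and lysine removal, against 154 in complete medium. As a list the ligands had a median of -0.00 after leucine removal and 0.21 after lysine removal.

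Receptors and SMADs were within 2-fold of complete medium on their brightest probe sets. All 7 measured receptor and co-receptor genes were so, with medians of 0.09 after leucine removal and 0.03 after lysine removal. The type I receptor gene ACVR1B had 1080 and 1114 after leucine and lysine removal, against 959 in complete medium, and the type II receptor gene ACVR2A had 393 and 571, against 369. Median centring turned ACVR1B after lysine removal to -0.03 and ACVR2A after leucine removal to -0.04. Of the 10 genes for SMADs and nuclear partners 0 passed 2-fold against complete medium, with medians of 0.18 and 0.05. For lists this short, 0 is near the share over all genes. That share was 3.81% higher and 2.59% lower after leucine removal, and 6.05% and 3.42% after lysine removal. SMAD2, a receptor-activated SMAD, had 3157 and 4435 after leucine and lysine removal, against 2912 in complete medium. SMAD3, the other one, had 575 and 500.2, against 509.9, and the common partner SMAD4 had 1556 and 1690, against 1650. Median centring turned SMAD2 after leucine removal to -0.01 and SMAD4 after lysine removal to -0.21. SMAD2 was 0.61 higher after lysine removal on its brightest probe set, and its other probe sets above the level filter ran from 0.01 to 1.30. A dimmer SMAD4 probe set was at -1.21 after leucine removal. MED15, a Mediator subunit that SMADs contact, had 396 after leucine removal and 167 after lysine removal, against 245 in complete medium, which puts leucine 1.24 above lysine deprivation.

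Of the convertases and latency proteins, FURIN, a protease that cuts ligand precursors, had 135 after leucine removal and 276 after lysine removal, against 259 in complete medium, and its difference of 0.09 after lysine removal turned to -0.16 under median centring. LTBP3, a latent TGF-beta binding protein, had 101 and 136 after leucine and lysine removal, against 239 in complete medium, a difference of -1.24 after leucine removal. Its other probe sets stood at -0.08 and -0.63. The 4 measured genes of this list had medians of -0.39 after leucine removal and 0.07 after lysine removal. Of 11 measured intracellular brakes 0 passed 2-fold against complete medium on their brightest probe sets, with medians of 0.13 after leucine removal and 0.22 after lysine removal. That count too is near the share over all genes. It was 3.81% higher and 2.59% lower after leucine removal, and 6.05% and 3.42% after lysine removal. The 5 measured extracellular inhibitor genes had medians of -0.01 and 0.00.

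Of 22 listed targets of the pathway in stem cells and mesendoderm 14 were measured, with medians of -0.01 after leucine removal and -0.10 after lysine removal. These medians cover bright stem cell genes such as NANOG together with dim mesendoderm genes, and the mesendoderm genes were mixed in direction. TBXT, the brachyury gene, had 202 after leucine removal and 454 after lysine removal, against 171 in complete medium, and was the sole target 2-fold higher. LHX1 had 66.6 after leucine removal and was at the floor after lysine removal, against 153 in complete medium. HHEX had 58.9 and 71.2 after leucine and lysine removal, against 143 in complete medium. Both were at least 2-fold lower on either deprived array, where their signals lay at or near the floor. EOMES had 155 after leucine removal and was at the floor after lysine removal, against 126 in complete medium. SOX17 was at the floor after leucine removal and had 145 after lysine removal, against 83.3 in complete medium. The pluripotency target NANOG had 17270 and 15730 after leucine and lysine removal, against 15770 in complete medium, and its difference of -0.00 after lysine removal was 0.02 after cyclic loess normalization.

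**Figure D4:**
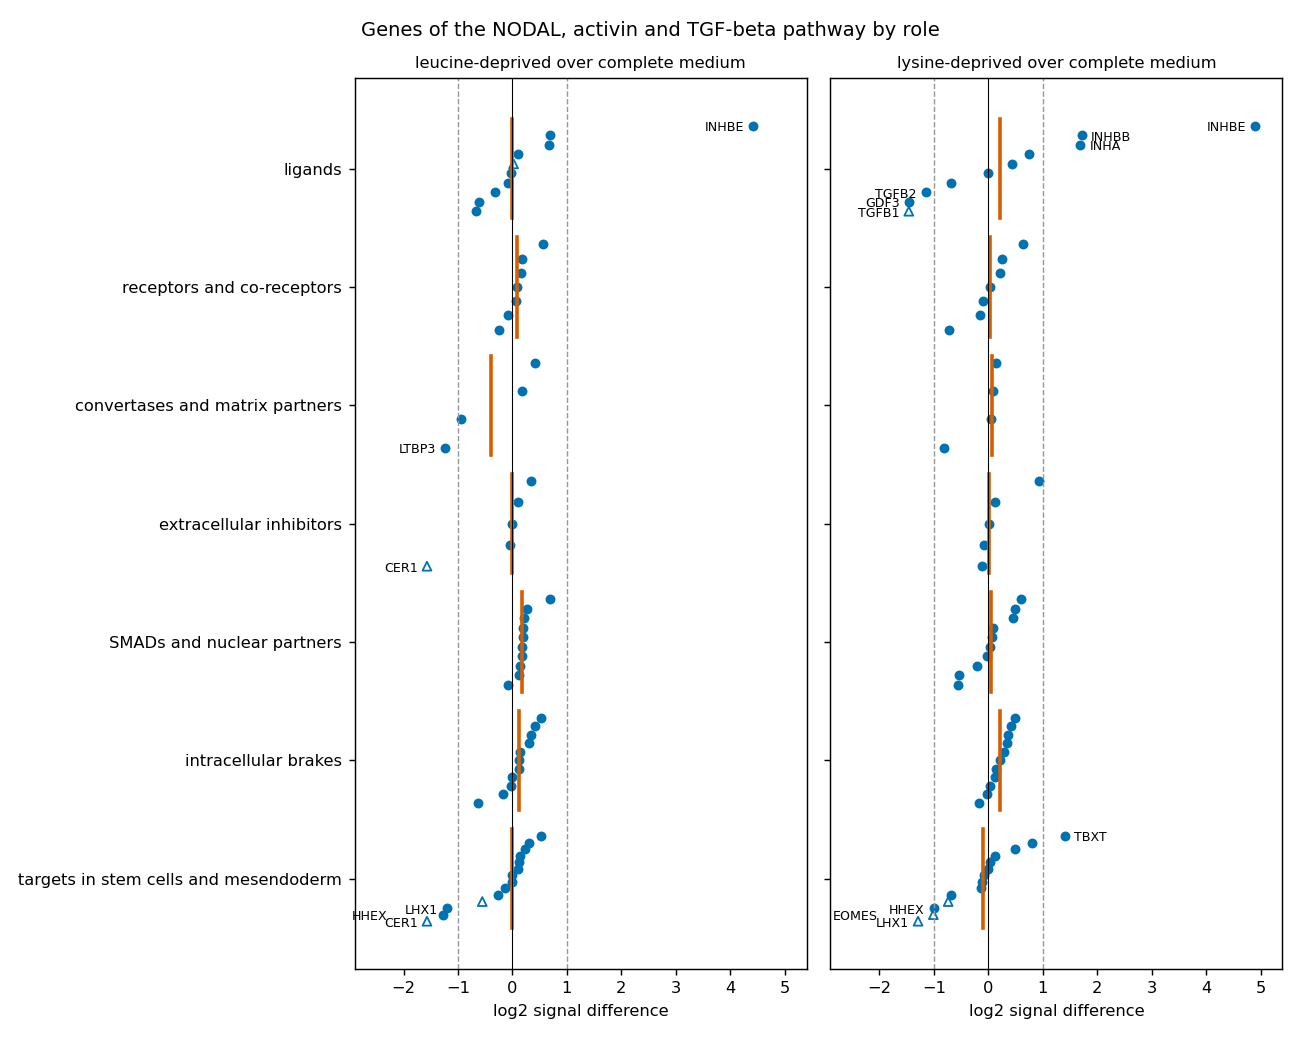
Log2 signal difference of pathway genes by role (brightest measured probe set of each gene; triangles are bounds, orange bars the median of a list, dashed lines 2-fold) for leucine-deprived and lysine-deprived over complete medium. INHBE stands apart among the ligands (4.42 and 4.90), while receptors, SMADs and intracellular brakes lie within 2-fold, as most genes on the array do.

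The stem cell label was checked against markers. All 12 stem cell markers were above the floor on each array, with a summed signal of 275516 after leucine removal and 281349 after lysine removal, against 265143 in complete medium. Of 10 mesendoderm and endoderm markers 6 and 6 were above the floor after leucine and lysine removal, against 7, with summed signals of 896.5 and 1212, against 1165, and MIXL1 and GSC were at the floor on every array. Of these markers 7 passed the level filter, and with bounds at their value their median difference was -0.55 after leucine removal and -0.75 after lysine removal, where all genes had 0.01 and 0.00. After leucine removal 2 of the 7 were at least 2-fold lower and 0 higher, where 2.59% of all genes were lower and 3.81% higher. After lysine removal 3 were lower, 2 of them as bounds, and 1, TBXT, was higher, against 3.42% and 6.05%. All 7 were dim, with signals of at most 454, where differences scatter more than over all genes. Of 10 fibroblast and feeder markers 6 and 7 were above the floor, against 8 in complete medium. Their sums of 27114 and 30858, against 29666, came mostly from COL1A1, THY1 and COL1A2, and FAP was at the floor throughout. The brightest COL1A1 probe set had 13190 and 18610 after leucine and lysine removal, against 11550 in complete medium. The next brightest had only 1248 and 836, against 998. POSTN and ACTA2 were also above the floor on every array. The brightest POSTN probe set had 366 and 319 after leucine and lysine removal, against 282 in complete medium. The brightest ACTA2 probe set had 1478 and 1255, against 1479. The signals of COL3A1, LUM, DCN and PDGFRB reached at most 106.6, 69.45, 134.3 and 93.85. Each of these genes was at the floor on at least 1 array. Of 7 trophoblast markers 5 and 3 were above it, against 3 (sums of 641 and 463, against 429.8), and of 5 neural markers 3 on each array. The part of other cell types in the member values was not tested.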

How the data were processed

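RNA from khES3 cells in leucine-deprived, lysine-deprived and complete medium was measured on 1 Affymetrix array each, starting from 100 ng per the labels' protocols. The authors deposited a linear signal intensity for each probe set, made with MAS5 per the submitters' processing notes (version and settings: not given in the sources used here). The mean after trimming 2% at either end was 500.1 on every array. The values were thus scaled to a common mean, and differences in total mRNA cannot be seen.

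Control probe sets were left out. Of the other 54613, 41091 carried 1 gene symbol, 1801 more than 1 and 11721 none. Signals below the 40th percentile of an array were raised to it before log2 was taken. Each gene was read by its brightest probe set among the 23055 (12961 genes) whose mean log2 signal reached the median. All 8 measured members passed this level filter, with 13 of 15 probe sets. Differences were counted at 2-fold, and with 1 array a group no test was possible. The rule for naming took all members, pathway genes past 2-fold in any comparison, and ACVR1B, ACVR2A, SMAD2, SMAD3, SMAD4 and NANOG. Members and lists were chosen with earlier results of these data known. Alternatives covered the floor, scaling, fold threshold, probe set choice and level filter. The calculations used limma 3.58.1 under R 4.3.3 for scaling and, under Python 3.11.15, pandas 2.3.3 and numpy 2.4.6. The code was run on simulated arrays with seeded 3-fold changes. Their noise was set below that of these arrays, so the run checks the code and not the accuracy of the calls. Precision is limited by the number of arrays.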

Additional observations from a re-analysis of the deposited data

How the results depend on the processing

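No paired analysis was possible because each condition had 1 array, and for the same reason no array could be left out. Alternatives were floors at the 20th and 60th percentile, log2(signal + 32) without a floor, median centring, quantile and cyclic loess normalization, other fold thresholds, other choices of probe set and no level filter. The medians over the member genes moved by less than the spread between probe sets of a gene in all 24 alternative values, and 20 of 21 pathway list medians did so. The exception was convertases and matrix partners after leucine removal, at -0.94 without the level filter. This spread of 0.49, 0.57 and 0.58 is wider than the member medians of 0.14, -0.00 and 0.21. Staying within it therefore does not show that the medians were stable. After lysine removal the member median went from -0.00 to -0.25 under median centring.

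Counts of member probe sets past 2-fold, 1 in each comparison, moved with dim probe sets. The 1 after lysine removal was GDF3, a bright probe set that stayed past 2-fold under every floor and scaling. After leucine removal the count was 2 with the floor at the 20th percentile (ACVR2B and CER1) and 0 at the 60th. After lysine removal it was 3 with the lower floor (ACVR2B, GDF3 and NODAL), 2 without a floor (GDF3 and NODAL) and 2 under median centring (GDF3 and FOXH1). NODAL was here the dim 220689_at, higher at 2.54 and 1.26. For leucine over lysine deprivation the count was 3 with the lower floor and 3 without a floor (ACVR2B, CER1 and NODAL each time). NODAL was again 220689_at, lower at -2.28 and -1.18. The count was 0 with the higher floor, and 2 under median centring and 2 after quantile normalization (CER1 and NODAL each time). There the NODAL probe set was another one, 237896_at, and higher, at 1.09 and 1.04. At 1.5-fold, bounds included, the counts were 4, 4 and 7 in the order of the comparisons, where 14.8% of all probe sets were higher and 11.1% lower after leucine removal, 20.2% and 12.7% after lysine removal, and 13.3% and 17.6% between the deprivations. At 3-fold they were 0, 0 and 0. Over all genes the calls past 2-fold moved with the floor too: after leucine removal 610 higher and 483 lower with the lower floor and 160 and 69 with the higher, after lysine removal 833 and 608 against 289 and 137, and between the deprivations 617 and 683 against 124 and 152. A floor changes these counts by construction, since it sets which dim values are bounds. GDF3 ran from -1.70 to -1.41 after lysine removal and from -0.75 to -0.59 after leucine removal over the floors and scalings, and FST 226847_at from 0.69 to 0.97 after lysine removal. The CER1 bound or value after leucine removal ran from -3.75 to -0.30.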
